A study of Homo sapiens with 95 samples.

Results

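The 10 genes described here supply, build, recycle or use glutathione, and were taken by symbol from the 23895 genes counted in every well: SLC7A11, SLC3A2, GCLC, GCLM, GSS, GSR, GPX1, GPX2, GPX4 and GLRX. All 10 were found and all 10 passed the filter on low counts in every comparison, with at least 1 count in each of the 82 wells used. Levels are given as CPM, a gene's count of unique molecular identifiers (UMIs) scaled to the total of its well. The platform reads transcripts at their 3′ end, so levels are compared between wells and not between genes.

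AALE cells, which derive from human bronchial epithelium and were immortalized, were grown as 8 populations and treated with 4 chemicals. NRF2, FGFR1, NRG1 and PIK3CA cells overexpressed the named gene (NRF2 is encoded by NFE2L2), and HCRED cells, with an empty vector holding the HcRed reporter, were their control. FAT1 and CDKN2A cells were CRISPR knockouts, and GFP cells, which had received a Cas9-EGFP plasmid with no guide, were their control. Wells received DMSO as the vehicle, or a single dose of 1 tobacco-related chemical. These were 24 µg/ml of a condensate of cigarette smoke (CSC), 173 µM of the polycyclic hydrocarbon benzo[a]pyrene (BaP) and 490 µM of the nitrosamine NNK. The study calls the wells of a group biological replicates, and the cells were plated in separate culture wells before exposure. Whether a population came from 1 clone, or its wells from separate thaws or passages, is not stated in the sources used here, so the p-values measure the spread between such wells. In these bulk wells, a change in the kinds of cells present and a change in RNA per cell cannot be told apart.

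Glutathione is a tripeptide of glutamate, cysteine and glycine, and is the main soluble thiol of the airway epithelium. Cystine import and glutamate-cysteine ligation limit its synthesis, glutathione peroxidases spend it to reduce peroxides, and glutathione reductase returns the oxidised form to the reduced form. Many of these genes are known targets of the transcription factor NRF2, which binds the antioxidant response element (ARE). The comparisons ask how the tobacco-related chemicals and the altered genes changed the RNA of these steps.

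Promoters from 250 bases before to 50 after the start of transcription were read from RefSeq (GRCh38.p14) for 7 of the 10 genes, and none was listed for SLC7A11, GSS or GSR. These 7 genes had 11 windows, as some had more than 1. The ARE core, TGACNNNGC on either strand, was in 1 window each of GPX2, GCLM and SLC3A2. It was in none of those listed for GCLC, GPX1, GPX4 or GLRX. Of all 20957 windows of this length, 13.9% held it. The windows with a match are shown because they belong to genes that rose under CSC, and that of GLRX because it rose under each chemical with no match in this window. The GPX2 window was chr14:64942696-64942995 on the minus strand, and its match began 122 bases before the start. The GCLM window was chr1:93909381-93909680 on the minus strand, and its match began 34 bases before the start. The SLC3A2 window, 1 of 3 listed for this gene, was chr11:62881449-62881748 on the plus strand, and its match began 37 bases before the start. The GLRX window was chr5:95822677-95822976 on the minus strand. Capitals mark the ARE core, which in GPX2 and GCLM lies on the opposite strand and so is seen as its reverse complement. A match is a description of the letters and not evidence of binding.
GPX2: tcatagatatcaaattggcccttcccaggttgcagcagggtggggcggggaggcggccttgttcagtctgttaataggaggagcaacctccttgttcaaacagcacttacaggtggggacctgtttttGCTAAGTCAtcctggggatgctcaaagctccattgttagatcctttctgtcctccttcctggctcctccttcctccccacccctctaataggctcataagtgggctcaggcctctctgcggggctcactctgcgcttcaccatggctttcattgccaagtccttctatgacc
GCLM: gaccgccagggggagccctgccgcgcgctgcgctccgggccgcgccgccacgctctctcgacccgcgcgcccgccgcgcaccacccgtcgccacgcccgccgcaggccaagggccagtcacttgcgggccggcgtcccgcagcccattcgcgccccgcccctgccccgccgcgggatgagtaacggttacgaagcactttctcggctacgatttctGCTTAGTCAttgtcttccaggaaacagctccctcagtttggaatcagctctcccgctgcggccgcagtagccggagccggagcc
SLC3A2: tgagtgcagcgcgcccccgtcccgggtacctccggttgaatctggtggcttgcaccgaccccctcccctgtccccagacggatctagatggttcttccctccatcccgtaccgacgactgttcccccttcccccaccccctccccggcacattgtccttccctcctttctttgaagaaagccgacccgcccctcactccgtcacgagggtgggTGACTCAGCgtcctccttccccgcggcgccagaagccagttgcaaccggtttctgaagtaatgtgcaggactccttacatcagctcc
GLRX: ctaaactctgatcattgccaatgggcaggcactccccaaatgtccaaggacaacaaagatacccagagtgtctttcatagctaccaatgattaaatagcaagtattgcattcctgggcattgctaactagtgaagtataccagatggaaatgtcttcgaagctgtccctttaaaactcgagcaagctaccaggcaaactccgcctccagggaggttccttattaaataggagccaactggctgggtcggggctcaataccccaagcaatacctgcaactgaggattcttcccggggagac

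Libraries averaged 1283217 UMIs (SD 237570, n = 82), from 692446 to 1895735, and were larger under DMSO (mean 1427513) than under CSC (1290086), BaP (1213795) or NNK (1180450). By the well positions in the labels, each population kept its columns and had 1 row for each chemical, so within a population chemical and row cannot be told apart. Each block of columns held 2 populations in alternate rows. NRF2 and HCRED cells shared their columns and differed in row, FGFR1, PIK3CA and GFP cells shared the rows of HCRED cells and differed in columns, and the other comparisons between populations differed in both, so that position and population cannot be told apart. All 10 airway basal and epithelial markers averaged over 1 CPM, and their summed level ran from 847 to 1718 CPM under DMSO, 787 to 1421 under CSC, 771 to 1304 under BaP and 795 to 1545 under NNK. CD3E, CD79A, VWF and CDH5 were at 0 in every well. PECAM1, the other endothelial marker, averaged 1.39 CPM (up to 5.42). Of 5 fibroblast markers only DCN averaged over 1 CPM (3.98, up to 15.8). The sum of 5 immune markers ran from 5.04 to 27.8 CPM under DMSO and from 12.3 to 39.4 under CSC, and only CD68 of these averaged over 1 CPM. The part of these shifts in the results was not tested. One well stood apart from its replicates, number 2 of NRG1 cells under NNK. It had the highest NNK level of 5 of the 10 genes (SLC3A2, GCLC, GCLM, GSR and GPX1), with 44.1 CPM of GCLC against 12.4 and 16.9 in its replicates, and the lowest of GPX4. NNK results are therefore given with and without it. Leaving it out was planned with its behaviour already known.

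**Figure D1:**
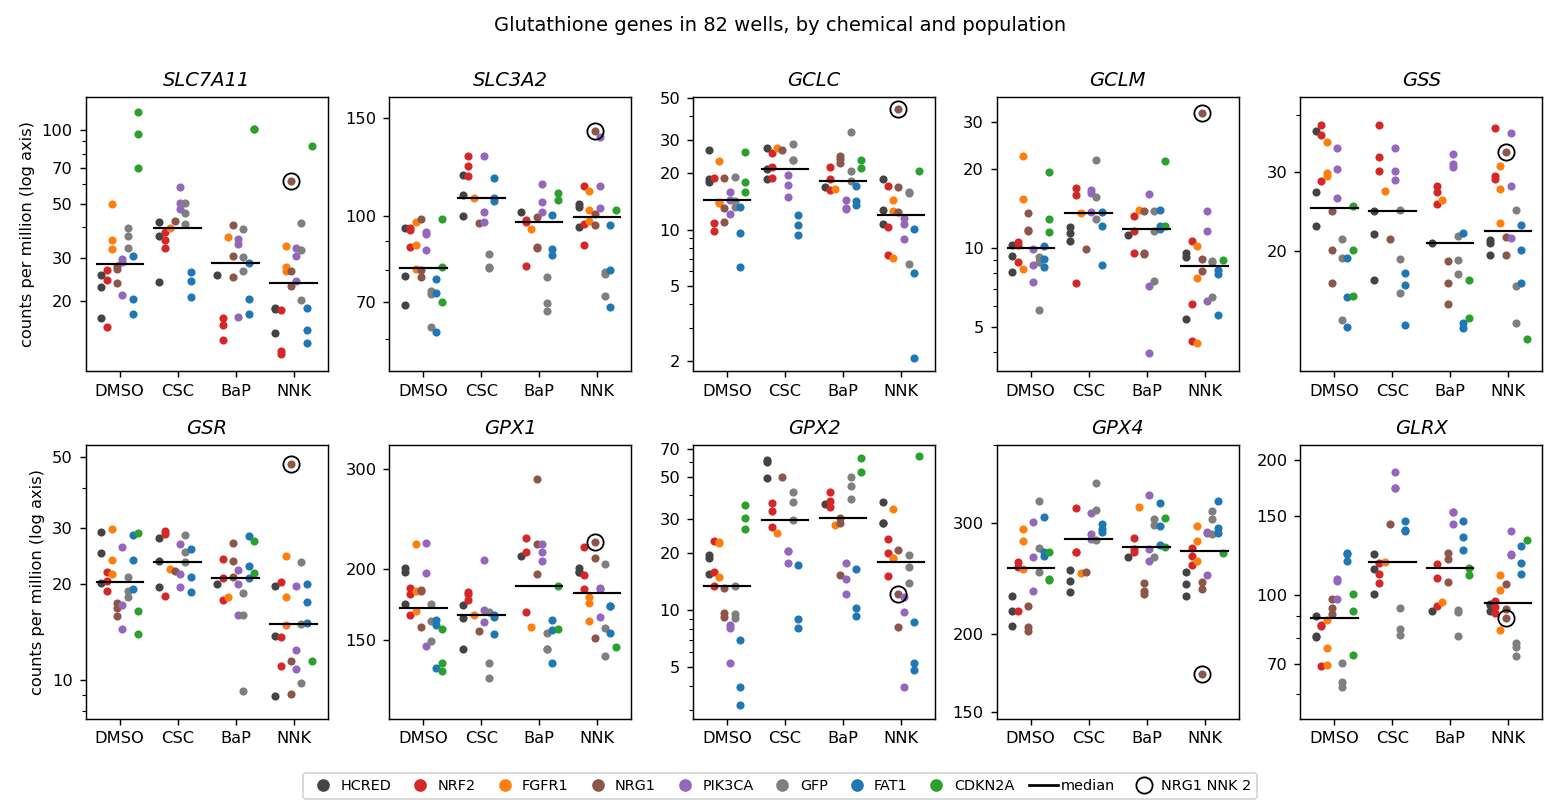
Level of each gene in CPM (log axis) in 82 wells, by chemical. Points are wells coloured by population, black lines are medians, and the ringed point is NRG1 NNK well 2. GPX2 is higher under CSC (median 29.6 CPM) and BaP (30.3) than under DMSO (13.4), and the ringed well holds the highest GCLC, GCLM and GSR. The medians pool all wells of a chemical, and the populations are not equally represented under each chemical.

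CSC was compared with DMSO in the 5 populations with 3 wells of each (HCRED, PIK3CA, GFP, NRF2 and FAT1). In it 7 of the 10 genes rose and none fell, while 6.05% of all genes tested changed in either direction. GPX2 rose most, and SLC7A11, GCLM, GLRX, GCLC, SLC3A2 and GPX4 rose by smaller steps. The median log2 fold change of the 10 genes was 0.41, beside -0.01 over all genes tested. GPX2, SLC7A11, SLC3A2 and GLRX passed the threshold under every alternative setting. The count was 4 of 10 without the wells numbered 1 and 4 of 10 without those numbered 2, where GCLC, GCLM and GPX4 no longer passed. Over all genes, 391 passed without the wells numbered 2, beside 692 in the main fit.

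BaP was compared with DMSO in PIK3CA, GFP, NRF2, NRG1 and FAT1 cells, and 6 of the 10 genes rose (GPX2, GCLC, GLRX, GPX1, SLC3A2 and GPX4) with none falling, against 8.81% of all genes tested in either direction. The median of the 10 genes was 0.18, beside -0.01 over all genes. GPX2, GCLC and GLRX passed under every alternative. The count was 3 of 10 without the wells numbered 1. Over all genes the calls ran from 529 to 1884 over the alternatives, beside 1003 in the main fit.

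NNK was compared in 7 populations, all but CDKN2A. GPX2, SLC3A2 and GLRX rose and GSR fell, 4 of the 10 genes, against 7.24% of all genes tested. Without NRG1 NNK well 2 the calls were 5 of 10, with GPX4 also higher, and 19.7% of all genes tested passed. The median of the 10 genes was 0.05 with that well and 0.06 without it. With the wells numbered 1 or those numbered 3 left out, 1 gene was called, SLC3A2, and the same held without HCRED cells. Over all genes, 249 passed without the wells numbered 1, beside 824 in the main fit. The comparisons with DMSO share control wells and are not independent of each other.

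**Figure D2:**
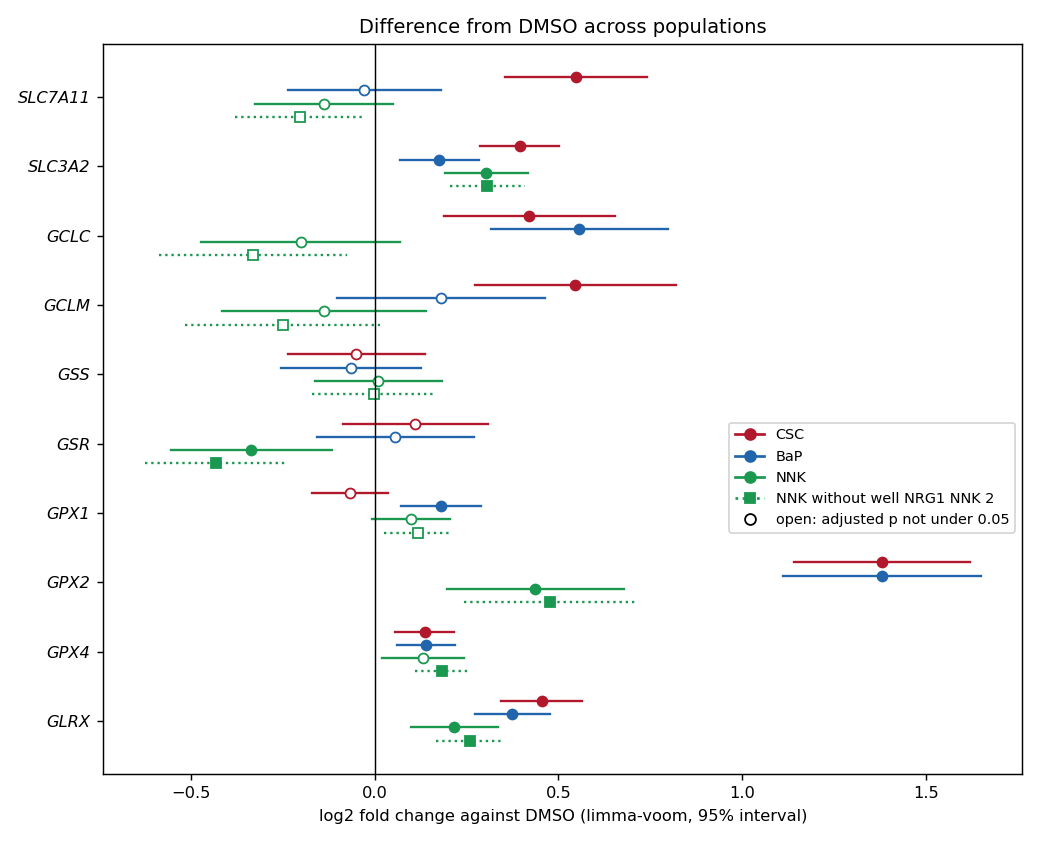
Log2 fold change against DMSO (x axis) of each gene under CSC, BaP and NNK, with 95% intervals from limma-voom. Filled symbols have an adjusted p under 0.05, and green squares leave out NRG1 NNK well 2. GPX2 stands at 1.38 under both CSC and BaP, and GSR is below 0 under NNK in both fits.

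SLC7A11 (chr4:139085251-139163503, minus strand, GRCh37 as for all gene positions) encodes the cystine-glutamate exchanger of system xc-, and SLC3A2 (chr11:62623476-62656352, plus strand) encodes the heavy chain that carries it to the membrane. Under CSC, SLC7A11 ran from 20.8 to 58.2 CPM (median 38.4) in 15 wells, and under DMSO from 15.7 to 39.9 (median 25.6) in 15 wells. The ranges overlapped over all wells, but the means were higher under CSC in 5 of 5 populations and all wells were above in 3 of them. The log2 fold change was 0.55 (SE 0.10, adjusted p = 2.05e-05), a 1.46-fold rise. In PIK3CA cells SLC7A11 stood at 58.2, 47.6 and 50.4 CPM under CSC and at 29.8, 28.9 and 21.3 under DMSO. In FAT1 cells the corresponding values were 20.8, 26.3 and 24.3 against 30.5, 20.4 and 17.7. The groups did not overlap in PIK3CA cells and did in FAT1 cells. The difference in CSC response between populations had an unadjusted p of 0.00394 and did not pass after adjustment (0.459, edgeR).

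SLC7A11 did not pass under BaP (log2 fold change -0.03, SE 0.10, 95% interval -0.24 to 0.18, adjusted p = 0.925). Under NNK its log2 fold change was -0.14 (SE 0.09, adjusted p = 0.433), and -0.20 (adjusted p = 0.0985) without the well that stood apart. CSC was also set directly against BaP in the 4 populations with both, although each had a single dose in its own unit. SLC7A11 was the only gene of the 10 called there, against 4.78% of all genes tested, and was higher under CSC by 0.63 (SE 0.12, adjusted p = 8.17e-05). It ranged from 20.8 to 58.2 CPM (median 39.8) under CSC and from 13.9 to 39.3 (median 23.5) under BaP. All CSC wells lay above all BaP wells in 3 of 4 populations. Of the other genes, SLC3A2 (0.17, SE 0.06, adjusted p = 0.0833) and GPX1 (-0.16, SE 0.05, adjusted p = 0.0808) had an unadjusted p under 0.05. So did 1820 of 11353 genes tested.

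SLC3A2 rose under all 3 chemicals. It ran from 80.6 to 128 CPM (median 108) under CSC and from 61.7 to 95.3 (median 77.9) under DMSO, and within each of the 5 populations every CSC well was above every DMSO well. The log2 fold change was 0.39 (SE 0.05, adjusted p = 4.87e-08). Under BaP it was 0.18 (SE 0.05, adjusted p = 0.0253), with all wells above in 2 of 5 populations, and the call was lost without the wells numbered 1 (0.282) or 3 (0.174), holding in 10 of 15 alternatives. Under NNK it was 0.30 (SE 0.06, adjusted p = 5.94e-05), with means higher in 7 of 7 populations, and 0.31 (adjusted p = 1.94e-06) without NRG1 NNK well 2. In contrast to SLC7A11, its heavy chain partner thus passed in each comparison with DMSO, though the difference between the genes was not tested.

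GCLC (chr6:53362139-53481768, minus strand) and GCLM (chr1:94350755-94375012, minus strand) encode the catalytic and modifier subunits of glutamate-cysteine ligase, the rate-limiting enzyme of glutathione synthesis. Both were counted sparsely, with a median of 20 UMIs per well for GCLC and 13 for GCLM. GCLC ran from 9.33 to 28.4 CPM (median 19.6) under CSC and from 6.35 to 26.5 (median 14.3) under DMSO. The ranges overlapped, with means higher in 5 of 5 populations and all wells above in 1. Its log2 fold change was 0.42 (SE 0.12, adjusted p = 0.0136) under CSC and 0.56 (SE 0.12, adjusted p = 0.000669) under BaP. In NRG1 cells under BaP it was at 24.7, 22.5 and 23.7 CPM, above the DMSO values of 18.7, 12.97 and 10.97, whereas in PIK3CA cells the BaP values of 12.9, 12.95 and 14.4 overlapped the DMSO values of 15.9, 12.1 and 14.4. The CSC call did not hold when the wells numbered 1, 2 or 3 were left out, with adjusted p-values of 0.0622, 0.0833 and 0.147, and it held in 10 of 15 alternatives in all.

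GCLM rose under CSC by 0.55 (SE 0.14, adjusted p = 0.00523). It ran from 7.33 to 21.5 CPM (median 13.6), beside 5.82 to 10.6 (median 9.06) under DMSO, and every CSC well was above every DMSO well in 3 of 5 populations. In GFP cells it was at 21.5, 12.8 and 15.7 CPM under CSC and at 9.23, 5.82 and 8.80 under DMSO. The call was lost without the wells numbered 1 (adjusted p = 0.101) or 2 (0.0760), and held in 11 of 15 alternatives. Under BaP the log2 fold change of GCLM was 0.18 (SE 0.14, 95% interval -0.10 to 0.46, adjusted p = 0.512). The direct difference between CSC and BaP was 0.29 (SE 0.17, adjusted p = 0.421) for GCLM and 0.00 (SE 0.13, 95% interval -0.25 to 0.25) for GCLC.

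Under NNK both ligase subunits had values below DMSO that did not pass. For GCLC the log2 fold change was -0.20 (SE 0.14, adjusted p = 0.427) and for GCLM -0.14 (SE 0.14, adjusted p = 0.629). Without NRG1 NNK well 2 the values were -0.33 (adjusted p = 0.0582) for GCLC and -0.25 (adjusted p = 0.195) for GCLM. Without NRG1 cells altogether GCLC passed at -0.41 (adjusted p = 0.0264).

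GSS (chr20:33516235-33543830, minus strand) encodes glutathione synthetase, which adds glycine in the last step. It passed under none of the chemicals, with a log2 fold change of -0.05 (95% interval -0.24 to 0.14, adjusted p = 0.872) in CSC wells. The value was -0.06 in BaP wells (-0.25 to 0.13, adjusted p = 0.775) and 0.01 in NNK wells (-0.16 to 0.18, adjusted p = 0.966).

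GSR encodes glutathione reductase, the recycling enzyme that uses NADPH. Under NNK it ran from 8.93 to 47.5 CPM (median 15.0) in 21 wells and under DMSO from 14.4 to 29.8 (median 20.5), and its mean was lower in 6 of 7 populations. NRG1 NNK well 2 held the highest value, and its replicates held 11.5 and 9.09 CPM beside 16.8, 17.5 and 15.8 under DMSO. The log2 fold change was -0.33 (SE 0.11, adjusted p = 0.0445) with that well and -0.43 (SE 0.10, adjusted p = 0.000539) without it. In HCRED cells all NNK wells (19.7, 8.93 and 13.8 CPM) were below all DMSO wells (29.1, 25.0 and 20.1). The call held in only 6 of 18 alternatives, of which leaving out that well is 1, while the value stayed below 0 in all of them, from -0.43 to -0.27. It was lost under DESeq2 (0.142), edgeR's own test (0.0960), DESeq2's size factors (0.0662) and no filter on counts (0.0516), without the wells numbered 1 (0.414) or 3 (0.225), and on leaving out any population but NRG1, with adjusted p-values from 0.0849 to 0.186. GSR did not pass under CSC (0.11, SE 0.10, adjusted p = 0.649) or BaP (0.06, SE 0.11, adjusted p = 0.831).

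GPX2 (chr14:65405870-65409464, minus strand) encodes a glutathione peroxidase of epithelia. It ran from 8.01 to 61.1 CPM (median 29.6) in the 15 CSC wells, and from 3.17 to 23.1 (median 9.53) in the 15 DMSO wells. Every CSC well was above every DMSO well of its population in 5 of 5 populations. In HCRED cells it was at 61.1, 59.4 and 49.0 CPM under CSC and at 18.8, 15.4 and 19.4 under DMSO. In FAT1 cells, where it was lowest, the values were 17.2, 8.01 and 8.97 against 3.17, 3.96 and 6.94. GPX2 thus rose in the populations of this comparison with the highest and the lowest mean under DMSO. Its log2 fold change across populations was 1.38 (SE 0.12, adjusted p = 1.67e-15), or 2.60-fold. CDKN2A and FGFR1 cells, with higher means under DMSO, were not in this comparison.

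Under BaP GPX2 ran from 9.26 to 49.5 CPM (median 28.6) and was again above DMSO in every well of 5 of 5 populations. The log2 fold change was 1.38 (SE 0.13, adjusted p = 7.73e-13). In GFP cells it stood at 49.5, 44.7 and 38.4 CPM under BaP, at 29.6, 36.7 and 41.4 under CSC and at 13.4, 9.14 and 9.53 under DMSO, so that both chemicals were clear of DMSO and overlapped each other. The direct difference between CSC and BaP was -0.21 (SE 0.11, 95% interval -0.44 to 0.02, adjusted p = 0.372). Under NNK GPX2 rose by 0.44 (SE 0.12, adjusted p = 0.0128), or 0.48 (adjusted p = 0.00149) without NRG1 NNK well 2, with means higher in 7 of 7 populations and all wells above in 2. In HCRED cells the NNK wells held 36.998, 28.6 and 28.6 CPM. The NNK call was lost without the wells numbered 1 (0.135) or 3 (0.311), and without HCRED cells (0.188), and held in 14 of 18 alternatives.

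GPX4 (chr19:1103981-1106790, plus strand), the peroxidase that reduces lipid hydroperoxides in membranes, rose by small steps of 0.14 (SE 0.04, adjusted p = 0.0253) under CSC and 0.14 (SE 0.04, adjusted p = 0.0139) under BaP, about 1.10-fold each. Its ranges overlapped, from 233 to 348 CPM under CSC and from 206 to 325 under DMSO. Both calls were lost without the wells numbered 1 (0.0860 and 0.103) or 2 (0.170 and 0.0596), and they held in 9 of 15 and 12 of 15 alternatives. Under NNK the value was 0.13 (SE 0.06, adjusted p = 0.151), and it passed at 0.18 (adjusted p = 0.000107) without NRG1 NNK well 2, which held 172 CPM beside 236 and 242 in its replicates.

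GPX1 (chr3:49394607-49396038, minus strand), the widely expressed cytosolic peroxidase, rose under BaP by 0.18 (SE 0.05, adjusted p = 0.0215), from a range of 134 to 222 CPM under DMSO to 136 to 288. All wells were above in 1 of 5 populations, NRG1, with 288, 221 and 196 CPM against 158, 184 and 183. The call was lost without the wells numbered 1 (0.141) or 2 (0.174) and without NRG1 cells (0.206), and held in 9 of 15 alternatives. Population differences in the BaP response of GPX1 had an unadjusted p of 0.00107 and an adjusted p of 0.180 (edgeR). GPX1 did not pass under CSC (-0.07, SE 0.05, adjusted p = 0.580) or NNK (0.10, SE 0.05, adjusted p = 0.279). It has processed pseudogenes in the genome, which makes its counts less certain.

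GLRX (chr5:95087023-95158430, minus strand) encodes glutaredoxin, which uses glutathione to reduce mixed disulfides on proteins. It ran from 81.6 to 189 CPM (median 118) under CSC and from 62.3 to 124 (median 85.8) under DMSO, and all CSC wells were above all DMSO wells in 5 of 5 populations. The log2 fold change was 0.45 (SE 0.06, adjusted p = 9.96e-10). Under BaP it rose by 0.38 (SE 0.05, adjusted p = 4.3e-08), also without overlap in 5 of 5 populations. In PIK3CA cells GLRX stood at 189, 173 and 173 CPM under CSC, at 145, 153 and 153 under BaP, at 139, 124 and 123 under NNK and at 107, 109 and 98.0 under DMSO, so that the 4 groups were fully apart. In FAT1 cells it held 140, 139 and 147 CPM under CSC and 124, 119 and 123 under DMSO, a smaller step. The CSC response of GLRX had the smallest unadjusted p for population differences among the 10 genes, 0.000929, and did not pass after adjustment (0.247, edgeR).

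Under NNK GLRX rose by 0.22 (SE 0.06, adjusted p = 0.0110), with all wells above in 4 of 7 populations, and by 0.26 (adjusted p = 8.36e-06) without NRG1 NNK well 2. The call was lost without the wells numbered 1 (0.144) or 3 (0.137), and held in 13 of 18 alternatives. None of the 10 genes passed the test of population differences in response to CSC, BaP or NNK by edgeR, where 0.149%, 0.202% and 0.0878% of all genes passed. At an unadjusted p under 0.05 there were 2, 2 and 0 of them, and DESeq2 called 0 in each. Over all genes tested by edgeR, 667 of 11436, 755 of 11384 and 770 of 11387 had an unadjusted p under 0.05.

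**Figure D3:**
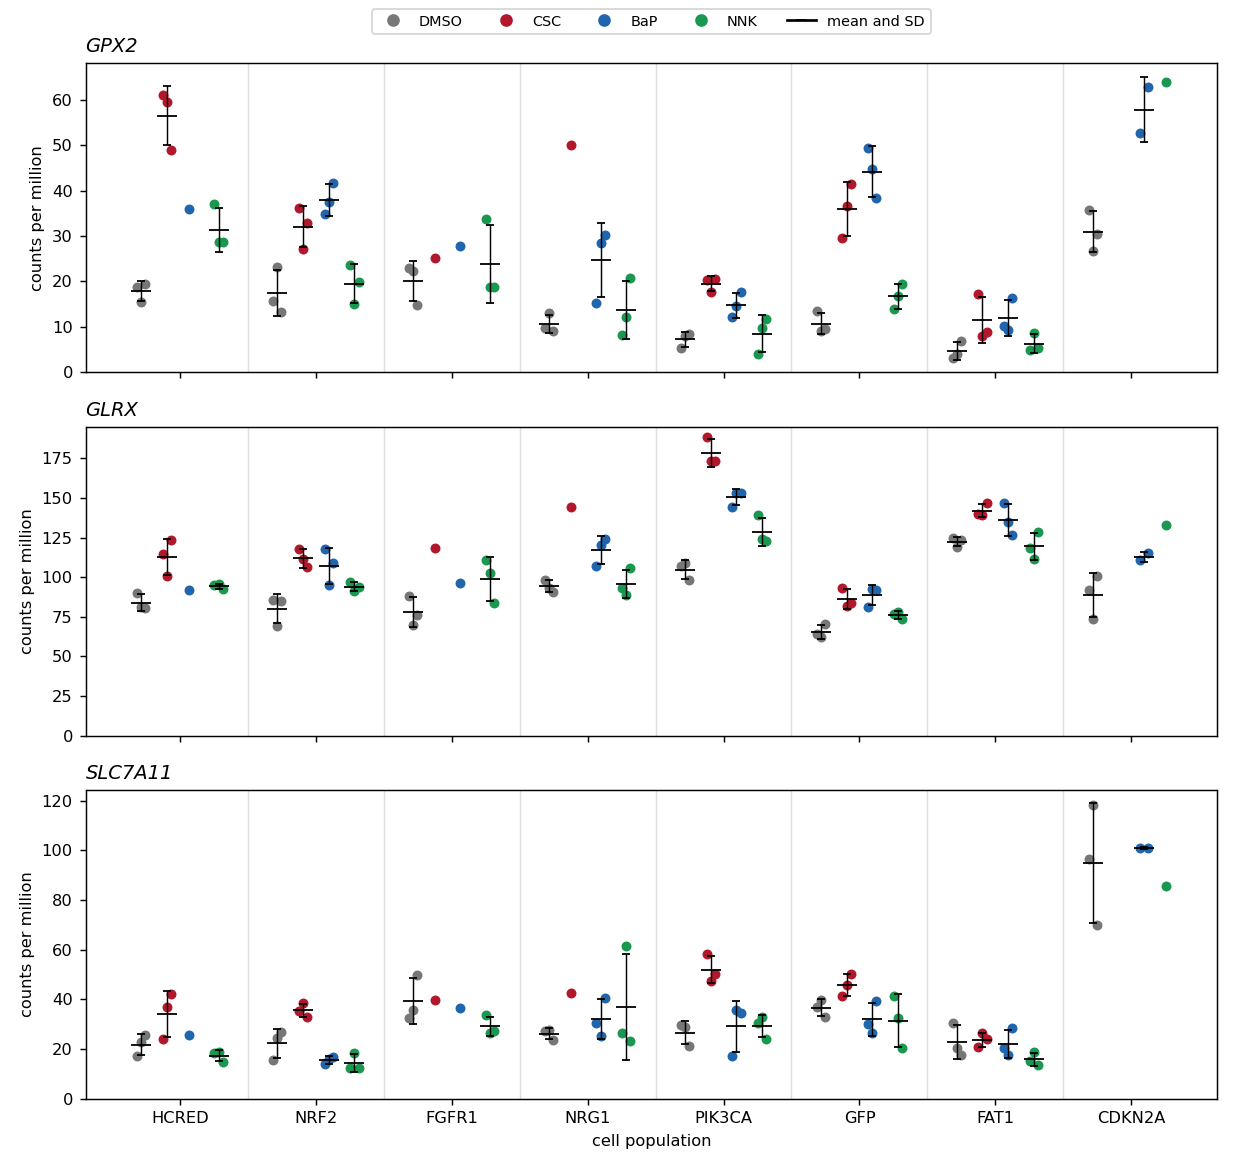
GPX2, GLRX and SLC7A11 in CPM (y axes from 0) in each population and chemical. Points are wells, and bars are the mean and SD of groups with more than 1 well. GPX2 is above DMSO in each CSC and BaP group of 3 wells, and SLC7A11 is highest in CDKN2A cells.

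Differences between populations were examined under DMSO, where each had 3 wells. NRF2 cells held NFE2L2 at a mean of 152 CPM beside 44.8 in HCRED cells, and the other altered genes also differed in the direction of their labels. With NRF2 overexpressed none of the 10 genes passed by limma-voom, while 4.7% of all genes tested did. At an unadjusted p under 0.05 there were 3, beside 1711 of 11563 genes tested, and edgeR's own test called 1 and DESeq2 0. The closest was GPX4, with 260, 255 and 218 CPM in NRF2 cells against 217, 206 and 229 in HCRED cells (0.26, SE 0.08, adjusted p = 0.0546). GPX4 passed without HCRED DMSO well 3 (0.0329) or NRF2 DMSO well 3 (0.0173), and SLC3A2 passed at 0.44 (0.0487) without HCRED DMSO well 1. GCLC was at 18.9, 10.9 and 9.85 CPM in NRF2 cells and at 18.0, 26.5 and 18.6 in HCRED cells, a value of -0.64 (SE 0.26, adjusted p = 0.185).

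Under CSC, 1 of the 10 genes differed between NRF2 and HCRED cells, against 2.86% of all genes tested. At an unadjusted p under 0.05 there were 3, beside 1472 of 11407 genes tested. The wells of GSS (0.62, adjusted p = 0.140), GPX4 (0.22, adjusted p = 0.201) and GPX1 (0.14, adjusted p = 0.589) were higher in NRF2 cells without overlap. These genes did not pass, and how many of all genes were separated in the same way was not counted. GPX2 was at 36.2, 27.1 and 32.96 CPM in NRF2 cells and at 61.1, 59.4 and 49.0 in HCRED cells, without overlap. It was lower by -0.81 on the log2 scale (SE 0.18, adjusted p = 0.00187), and passed under every alternative. Under DMSO the same cells held 15.7, 23.1 and 13.4 CPM against 18.8, 15.4 and 19.4, overlapping groups with a difference of 0.04 (SE 0.25, adjusted p = 0.967). The difference between NRF2 and HCRED cells in their CSC response was -0.84 (SE 0.30, 95% interval -1.45 to -0.23) with an adjusted p of 0.487, so it did not pass. None of the 10 genes passed that test by limma-voom, beside 0.403% of all genes tested, and edgeR's own test and DESeq2 each called 0. With an unadjusted p under 0.05 there was 1, beside 697 of 11410 genes tested.

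In FGFR1 cells SLC7A11 was higher, 1 of the 10 genes against 0.838% of all genes tested, at 32.6, 35.6 and 49.7 CPM beside 17.1, 22.8 and 25.6 in HCRED cells. The groups did not overlap, and the log2 fold change was 0.81 (SE 0.22, adjusted p = 0.0399). The call was lost on leaving out any of HCRED wells 1, 2 and 3 or FGFR1 wells 2 and 3, with adjusted p-values from 0.0618 to 0.481, and held in 5 of 13 alternatives. In NRG1 cells none of the 10 passed by limma-voom, against 2.94% of all genes tested, and edgeR's own test and DESeq2 called 0. At an unadjusted p under 0.05 there were 4, beside 1526 of 11607 genes tested. Among those 4, GPX2 was at 9.70, 12.97 and 9.14 CPM, below all HCRED wells (-0.67, SE 0.26, adjusted p = 0.205).

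In PIK3CA cells 3 of the 10 genes passed, against 5.21% of all genes tested, with GPX2 lower and GPX4 and GLRX higher than in HCRED cells. GPX2 was at 5.30, 8.05 and 8.36 CPM beside 18.8, 15.4 and 19.4, with a log2 difference of -1.24 (SE 0.31, adjusted p = 0.00528). GPX4 differed by 0.34 (SE 0.09, adjusted p = 0.00853) and GLRX, at 107, 109 and 98.0 CPM beside 89.8, 80.9 and 80.5, by 0.38 (SE 0.12, adjusted p = 0.0378). No PIK3CA well overlapped the HCRED wells for any of the 3 genes. The GPX2 call was lost without PIK3CA well 1 (0.0807), that of GPX4 without PIK3CA well 3 (0.151) or HCRED well 2 (0.0984), and that of GLRX without PIK3CA well 1 (0.106) or 2 (0.128) or HCRED well 2 (0.161) or 3 (0.109). They held in 11 of 12, 10 of 13 and 6 of 13 alternatives. DESeq2 gave no adjusted p for GPX2 here, so its alternatives leave out that tool.

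In FAT1 knockout cells 3 of the 10 genes passed against GFP cells, beside 13.5% of all genes tested. GLRX was higher, at 124, 119 and 123 CPM beside 63.8, 62.3 and 70.4, with a log2 difference of 0.98 (SE 0.13, adjusted p = 1.05e-09) or 1.97-fold, and the groups were far apart. SLC7A11 was lower by -0.59 (SE 0.20, adjusted p = 0.0332), at 30.5, 20.4 and 17.7 CPM beside 36.9, 39.9 and 32.99, and GPX2 by -1.15 (SE 0.38, adjusted p = 0.0307), at 3.17, 3.96 and 6.94 beside 13.4, 9.14 and 9.53. The groups did not overlap for either gene. GLRX passed under every alternative. The SLC7A11 call was lost without GFP well 1 (0.0768) or 2 (0.108) or FAT1 well 2 (0.113) or 3 (0.155), and that of GPX2 without GFP well 1 (0.128) or FAT1 well 1 (0.156) or 2 (0.0845). They held in 7 of 13 and 8 of 12 alternatives. For GPX2 DESeq2 again gave no adjusted p and is not among them.

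In CDKN2A knockout cells SLC7A11 and GPX2 were higher than in GFP cells, 2 of the 10 genes against 17.1% of all genes tested. SLC7A11 was at 96.5, 118 and 69.9 CPM beside 36.9, 39.9 and 32.99, with a log2 difference of 1.25 (SE 0.18, adjusted p = 3.56e-08) or 2.38-fold. GPX2 was at 35.7, 26.6 and 30.5 CPM beside 13.4, 9.14 and 9.53, with a log2 difference of 1.43 (SE 0.28, adjusted p = 3.61e-05) or 2.70-fold. Neither gene overlapped, and both passed under every alternative. Without CDKN2A well 2 the count was 4, with GLRX also higher (0.47, adjusted p = 0.00753) and GPX1 lower (-0.34, adjusted p = 0.0154). Over all genes the calls ran from 1237 to 3509 over the alternatives, beside 2032 in the main fit.

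The controls themselves differed. In GFP against HCRED cells 2 of the 10 genes passed, beside 9.94% of all genes tested, with SLC7A11 higher by 0.78 (SE 0.20, adjusted p = 0.00714) and GPX4 by 0.43 (SE 0.09, adjusted p = 0.000425). SLC7A11 was at 36.9, 39.9 and 32.99 CPM in GFP cells and at 17.1, 22.8 and 25.6 in HCRED cells, without overlap. The SLC7A11 call was lost without HCRED well 1 (0.0608) and under DESeq2 (0.0520). Knockout cells were tested against GFP cells only, and overexpressing cells against HCRED cells, as the study set its controls.

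**Figure D4:**
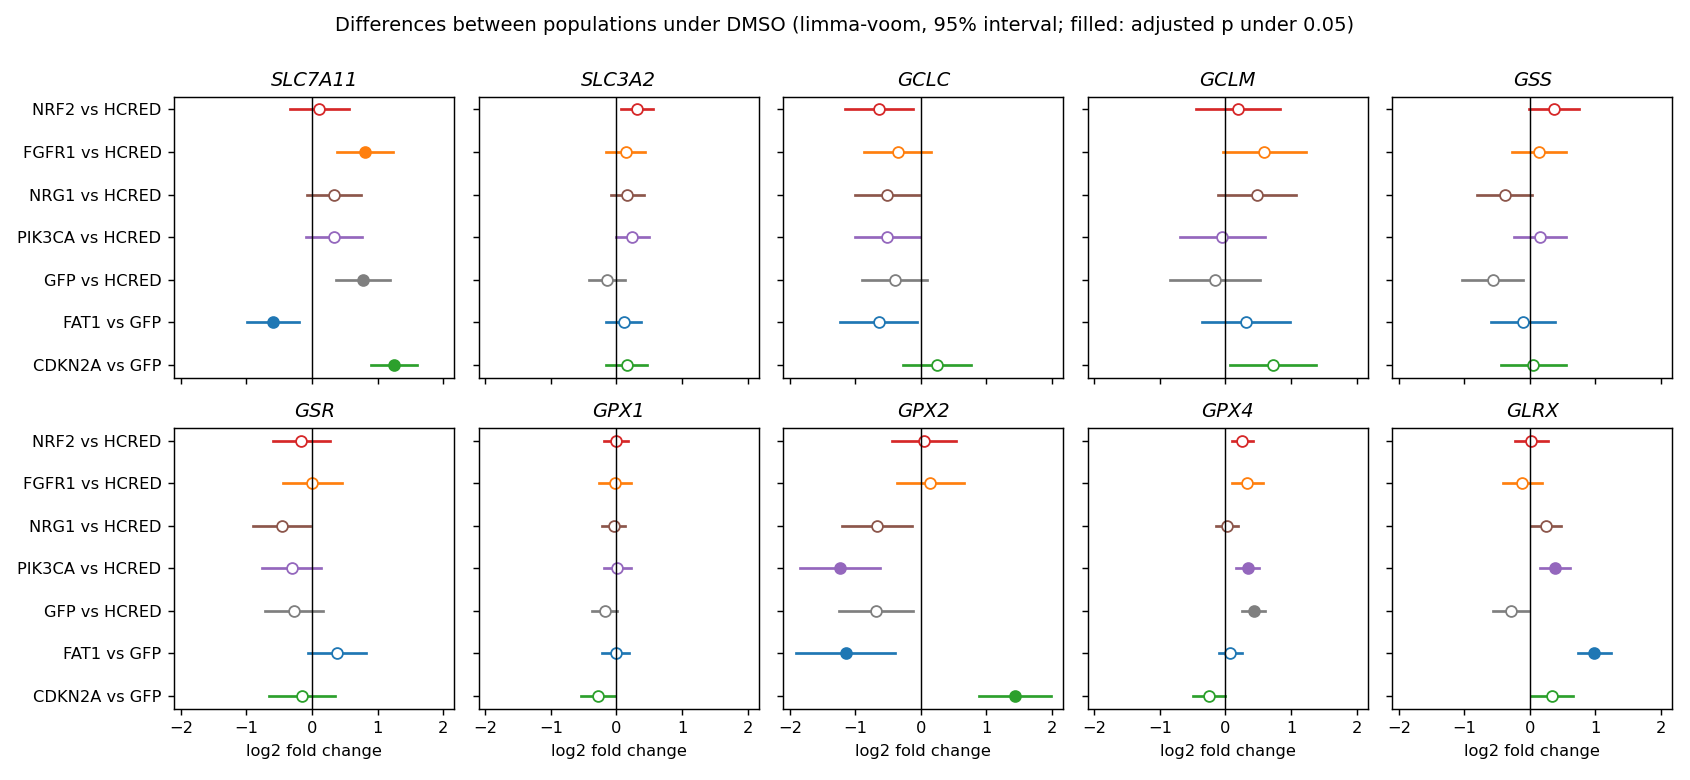
Log2 fold change (x axes) of each gene between populations under DMSO, with 95% intervals from limma-voom. Each row is 1 population against its control, and filled points have an adjusted p under 0.05. The largest called values are GPX2 (1.43) and SLC7A11 (1.25) in CDKN2A cells.

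The order of levels over all 8 populations is a description with no test, and sets knockout beside overexpressing cells although their controls differ. By mean level under DMSO, SLC7A11 was highest in CDKN2A cells (94.8 CPM, SD 24.1, n = 3), whose wells did not overlap those of FGFR1 cells, next in order (39.3, SD 9.14). GPX2 was also highest in CDKN2A cells (30.95 CPM, SD 4.55), clear of FGFR1 cells (20.04, SD 4.45), and lowest in FAT1 cells (4.69, SD 1.99), which overlapped PIK3CA cells (7.24, SD 1.68). GLRX was highest in FAT1 cells (122 CPM, SD 2.93), clear of PIK3CA cells (105, SD 5.82), and lowest in GFP cells (65.5, SD 4.30). For SLC3A2, GCLC, GSS, GSR, GPX1 and GPX4 the wells of each pair of neighbours in the order of means overlapped. GCLM had 1 gap, between NRG1 cells (12.3 CPM, SD 1.13) and NRF2 cells (9.88, SD 0.910).

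Other genes of the pathway were counted from lists. Over all genes tested, 1938 of 11436 (CSC), 2376 of 11384 (BaP) and 2332 of 11387 (NNK) had an unadjusted p under 0.05. Of the other peroxidases and glutaredoxins (GPX3, GPX7, GPX8, GLRX2, GLRX3 and GLRX5), none passed by limma-voom among the 5 tested under CSC, the 6 under BaP and the 5 under NNK, and 2, 2 and 0 had an unadjusted p under 0.05. Of 5 tested genes of glutathione breakdown 1 passed under CSC, GGCT, a gamma-glutamyl cyclotransferase, lower by 0.11 on the log2 scale (-0.11, SE 0.03, adjusted p = 0.0261). Of these 0 passed under BaP or NNK by limma-voom, where 1 and 0 had an unadjusted p under 0.05. Of 4 tested genes of cysteine supply 1 passed under BaP, CTH, the transsulfuration enzyme that releases cysteine, at 0.38 (SE 0.12, adjusted p = 0.0379). Of these 0 passed under CSC or NNK by limma-voom, where 1 and 0 had an unadjusted p under 0.05.

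Among 6 tested genes of the NRF2 pathway 4 rose under CSC and 4 under BaP, in both cases FTL, NQO1, SRXN1 and TXNRD1, and FTL and NQO1 rose under NNK. The quinone reductase gene NQO1 rose with CSC by 1.26 (SE 0.04, adjusted p = 1.62e-39), with BaP by 0.85 (SE 0.05, adjusted p = 1.62e-24) and with NNK by 0.28 (SE 0.05, adjusted p = 2.35e-05). Of 5 genes of the ATF4 pathway, another regulator of SLC7A11, DDIT3 rose under BaP (0.33, SE 0.08, adjusted p = 0.00456) and fell under NNK (-0.33, SE 0.08, adjusted p = 0.00588), and the others did not pass under any chemical. CYP1A1 and CYP1B1, which respond to polycyclic hydrocarbons, rose under all 3 chemicals. Without NRG1 NNK well 2, the NNK calls of FTL, NQO1, DDIT3, CYP1A1 and CYP1B1 remained, and 5 more genes of these lists passed. TXNRD1 (0.15, adjusted p = 0.00642), ASNS (0.18, adjusted p = 0.00173), CHAC2 (0.21, adjusted p = 0.0351) and CTH (0.30, adjusted p = 0.0493) were then higher and ATF4 (-0.20, adjusted p = 0.0201) lower than under DMSO. In the direct comparison of CSC with BaP, NQO1 (0.37, adjusted p = 7.73e-09), FTL (0.14, adjusted p = 0.00376) and CYP1B1 (0.32, adjusted p = 0.00244) were higher under CSC and DDIT3 was lower (-0.54, adjusted p = 2.08e-06).

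The same lists were counted between populations under DMSO. FTL, which encodes the light chain of ferritin, was higher in each of the 6 altered populations than in its control, from 0.075 (adjusted p = 0.0291) in NRG1 cells to 1.58 (adjusted p = 3.16e-34) in CDKN2A cells. In NRF2 cells 2 of 6 tested NRF2 pathway genes were higher, FTL (0.75, adjusted p = 7.4e-45) and the overexpressed NFE2L2 itself (1.84, adjusted p = 9.9e-19), and 3 of 5 ATF4 pathway genes were lower, ASNS (-0.65, adjusted p = 2.09e-05), ATF4 (-0.76, adjusted p = 0.000143) and TRIB3 (-2.48, adjusted p = 0.0286). Of the 6 NRF2 pathway genes, NFE2L2 included, 5 had an unadjusted p under 0.05, beside 1711 of 11563 genes tested. The median log2 fold change of the 6 was 0.49, beside -0.01 over all genes tested. The aminopeptidase gene LAP3 was higher in NRF2 cells (0.44, adjusted p = 0.0268) and GPX8 lower (-0.42, adjusted p = 0.0170). Under CSC, LAP3, FTL, NFE2L2 and CYP1A1 were higher in NRF2 than in HCRED cells, and GLRX2 (-0.51, adjusted p = 0.0280) and GPX3 (-1.93, adjusted p = 0.00774) were lower. FTL alone of these lists differed in its CSC response between NRF2 and HCRED cells (-0.18, adjusted p = 0.000551).

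In FAT1 cells, where SLC7A11 and GPX2 were lower than in GFP cells, NFE2L2 (-0.82, adjusted p = 0.000214), NQO1 (-1.21, adjusted p = 1.03e-14), ASNS (-1.22, adjusted p = 1.38e-19), ATF4 (-0.56, adjusted p = 0.00210), CTH (-1.20, adjusted p = 0.00499) and LAP3 (-1.30, adjusted p = 6.64e-13) were lower as well, and FTL was higher. In CDKN2A cells, where SLC7A11 and GPX2 were higher, CTH (1.25, adjusted p = 2.17e-05), CHAC2 (0.73, adjusted p = 0.00566), FTL and CYP1B1 (1.16, adjusted p = 0.00584) were higher and ASNS (-1.40, adjusted p = 9.48e-16), GPX8, GGCT and LAP3 lower. FGFR1 cells had FTL and DDIT3 (1.09, adjusted p = 2.55e-06) higher, and NRG1 cells FTL, DDIT3 and ASNS. PIK3CA cells had FTL, TXNRD1 (0.38, adjusted p = 0.00627) and LAP3 higher, and ASNS (-0.52, adjusted p = 0.00114) and CYP1B1 (-1.41, adjusted p = 0.00752) lower. Between the controls, ASNS (1.44, adjusted p = 1.07e-16), DDIT3, LAP3, GGCT and GPX8 were higher in GFP than in HCRED cells, and FTL (-0.19, adjusted p = 1.04e-05) and TXNRD1 lower. No other gene of these lists passed in these comparisons by limma-voom.

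The genes with the most similar group means were sought for the 8 members averaging at least 20 CPM, by Pearson's r of mean log2 CPM over 25 groups of 3 wells among 7511 genes. These r values are descriptions, since the groups share populations, chemicals and plate positions. GPX2 lay nearest to AKR1C3 (r = 0.87), AKR1C1 (0.85) and PIR (0.77). The nearest to GLRX were the proteasome genes PSMA5 (0.89) and PSMA1 (0.84), with ATP6V1E1 (0.84). SLC7A11 lay nearest to TMEM41A (0.81), WWTR1 (0.80) and ME1 (0.78), and SLC3A2 to DUSP1 (0.83), EGR1 (0.83) and KLF10 (0.81). GSS had the closest neighbour of the 8, AURKA (0.91), and GSR the most distant, UNC119B (0.72).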

How the data were processed

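Expression of AALE cells was measured by 3′ digital gene expression in 95 wells. For each gene and well the authors deposited a count of UMIs with no normalization, obtained after BWA 0.7.10 alignment to hg19 transcripts, with each UMI that matched a single gene counted once per well. Groups came from sample titles. The 13 wells with 2-digit replicate numbers, whose meaning the labels do not give, were left out of the main comparisons, leaving 82.

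Counts were fitted in R 4.3.3 with limma 3.58.1 (voom) and TMM factors from edgeR 4.0.16, over genes with a mean count of at least 1, with 2-sided tests and Benjamini-Hochberg adjustment over all genes tested (threshold 0.05). Chemicals were compared within populations that had 3 wells under both, with population as a covariate. Differences in response over all populations were tested with edgeR's quasi-likelihood F test, and that between NRF2 and HCRED cells with limma-voom. DESeq2 1.42.0, other normalizations and filters, and left-out wells and populations were alternatives. Scripts were tested on simulated data. Adjusted p-values are from limma-voom unless another tool is named.

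The 10 genes, the other lists and the comparisons were chosen with earlier results of these data known. All 10 genes are counted in each comparison, with values for those called and for some of the others. Separation of wells without overlap was not counted over all genes, so it is a description. Genes of the other lists are reported by counts or by name where they passed the threshold, with values for some. Nearest patterns were taken as the 3 highest correlations. Only the highest is printed for GSS and GSR, and none for GPX1 and GPX4. Gene positions came from GENCODE 44 lifted to GRCh37, the assembly hg19 names, and promoters from RefSeq. No pair of replicate wells agreed within sampling noise (chi-square over degrees of freedom 1.13 or more in 76 pairs, up to 11.8 with NRG1 NNK well 2). Library totals from 692446 to 1895735 set the precision.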

Additional observations from a re-analysis of the deposited data

Results flagged for a closer look

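Wells with 2-digit replicate numbers were outside the comparisons, and some lay above every DMSO well of their own population. Under CSC this held for all 7 such wells (FGFR1, NRG1 and CDKN2A cells) for SLC7A11, GPX2 and GLRX. The GPX2 values ran from 29.1 to 103 CPM, SLC7A11 from 44.04 to 144 CPM and GLRX from 121 to 153 CPM. Under NNK it held for both such wells (2, of CDKN2A cells) for GPX2, GPX4 and GLRX. GPX2 stood at 42.8 and 44.8 CPM there. The same 2 wells lay below every DMSO well of CDKN2A cells for GCLC (10.9 and 11.6 CPM), GCLM (6.52 and 10.5) and GSR (7.74 and 13.05). The 4 such wells under BaP (FGFR1 and HCRED cells) were mixed, with SLC7A11 above in 2 and below in 1, and SLC3A2, GPX2, GPX4 and GLRX above in 3 each. The labels do not say whether these wells were separate cultures, so no test was made. How many of all genes were separated in the same way was not counted, so these values are a description. With so few wells such separation can arise easily, most of all for the 2 NNK wells.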

How the results depend on the processing

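Of 30 called gene values, 14 stayed past the threshold under every alternative run, 16 did not under at least 1, and 0 turned in direction. The count of the 10 genes called under BaP was 3 with one fit over all groups, beside 6. Under NNK it was 1 without HCRED cells and 2 without PIK3CA, GFP or FGFR1 cells, beside 4. For CSC against BaP it was 2 under edgeR, 2 without PIK3CA or FAT1 cells and 3 with the 2-digit wells summed and all populations used, beside 1. Over all genes the fit with summed wells called 1054, beside 543 in the main fit. For NRF2 it was 1 under edgeR, for FGFR1 0 under DESeq2, without the count filter and in one fit over all groups, for PIK3CA and for FAT1 1 under DESeq2 and in one fit over all groups, and for GFP against HCRED 1 under DESeq2. With all chemicals in the fit the counts were 3 (NRF2), 2 (FGFR1), 1 (NRG1), 6 (PIK3CA), 5 (FAT1), 4 (CDKN2A) and 6 (GFP against HCRED). The calls over all genes rose in the same fits, from 543 to 1335 (NRF2), 98 to 634 (FGFR1) and 603 to 1637 (PIK3CA). They also rose from 1550 to 3666 (FAT1), 2032 to 3509 (CDKN2A) and 1140 to 2907 (GFP against HCRED). For NRG1 they reached at most 360 under any alternative, beside 341. The cause of these shifts was not tested. Leaving out wells moved the counts from 4 to 6 (CSC), 3 to 5 (BaP), 1 to 5 (NNK), 0 to 1 (NRF2), 0 to 1 (FGFR1), 1 to 3 (PIK3CA and FAT1), 2 to 4 (CDKN2A) and 1 to 2 (GFP against HCRED). With 2 wells left in an arm, the fit pools their spread with the rest.

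On average same-numbered wells did not deviate together (mean correlation of deviations -0.04 to 0.04), so the main fits did not pair them. Single pairs ran from -0.41 to 0.18 in the NNK comparison. Some means rest on 3 pairs, and they do not settle whether same-numbered wells were handled together. With the number as a replicate block the counts of the 10 genes were 7, 6 and 4 under CSC, BaP and NNK, and the block changed no count of these genes.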
